A study of Mus musculus with 6 samples.

Results

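Transcripts of the chaperonins, the barrel-shaped protein-folding machines of the cytosol and of mitochondria, were examined in the 3 lobes of the mouse prostate with and without MYC overexpression. The members were the 10 rows of the deposited table, out of 24908 genes, that carry the symbols TCP1, CCT2, CCT3, CCT4, CCT5, CCT6A, CCT7 and CCT8 (the 8 cytosolic CCT subunits) and HSPD1 and HSPE1 (the mitochondrial pair). All 10 passed the filter on low values, which kept 12361 genes. Bulk RNA-seq gave 6 libraries, 1 each from the anterior (AP), dorsolateral (DLP) and ventral (VP) prostate of a WT and of a MYC male mouse. The MYC animal was an FVB Hi-MYC heterozygote, which expresses human c-MYC from the ARR2Pb promoter in prostatic epithelium, and the WT animal was an FVB littermate without the transgene. Both animals were 12 weeks old and had eaten a purified diet (TD.130838) from weaning, and RNA came from the dissociated cells of each lobe. With 1 animal per genotype there is no replicate, so no p-value is given, and a difference between genotypes and one between these animals cannot be told apart. In bulk libraries, fewer cells of a type and less RNA per cell cannot be told apart either.

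CCT, also called TRiC, is a pair of stacked rings in which each of the CCT gene products holds a fixed place, and it folds actin, tubulin and a set of other cytosolic proteins inside a closed chamber at the cost of ATP. Hsp60, encoded by HSPD1, forms the corresponding chamber of the mitochondrial matrix, and Hsp10, encoded by HSPE1, is the lid that closes it over imported proteins. Both complexes serve cells that make much protein, among them secretory epithelium such as that of the prostate.

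HSPD1 and HSPE1 are neighbours on mouse chromosome 1, transcribed in opposite directions from a shared region, and the shared region holds a heat shock element. HSPD1 lies at chr1:55077833-55088243 and HSPE1 at chr1:55088148-55091317 of GRCm38.p6, and the gene models overlap by 96 bases. The CCT genes are scattered, at chr17:12916329-12925067 (TCP1), chr10:117050997-117063852 (CCT2), chr3:88297135-88321766 (CCT3), chr11:22990593-23003336 (CCT4), chr15:31590800-31601846 (CCT5), chr5:129787356-129846443 (CCT6A), chr6:85451505-85468477 (CCT7) and chr16:87483325-87495869 (CCT8). RefSeq windows of 250 bases before to 50 after a start site were found for 9 members, all but CCT4 (12 windows, with a second start for HSPD1, CCT2 and CCT5). They were searched on both strands for CACGTG (the E-box bound by MYC), for the heat shock element in 3 units (TTC, GAA and TTC, or GAA, TTC and GAA, with 2 bases of any kind between units), for CCAAT and for CCGGAAG (an ETS-type motif). The windows of the mitochondrial pair and those of CCT2 and CCT6A, the CCT subunits with the largest and the smallest difference between genotypes in VP, are printed 5′ to 3′ in the direction of transcription, with the matches in capitals. The HSPE1 window is chr1:55087898-55088197 (plus strand), and its capitals hold the heat shock element together with the CCGGAAG motif that overlaps it. The HSPD1 window is chr1:55088194-55088493 (minus strand), with the E-box and, nearer its end, a CCAAT box in reverse. The CCT2 window is chr10:117063803-117064102 (minus strand), with CCGGAAG in reverse, and the CCT6A window is chr5:129787106-129787405 (plus strand), with 2 CCAAT boxes.
HSPE1: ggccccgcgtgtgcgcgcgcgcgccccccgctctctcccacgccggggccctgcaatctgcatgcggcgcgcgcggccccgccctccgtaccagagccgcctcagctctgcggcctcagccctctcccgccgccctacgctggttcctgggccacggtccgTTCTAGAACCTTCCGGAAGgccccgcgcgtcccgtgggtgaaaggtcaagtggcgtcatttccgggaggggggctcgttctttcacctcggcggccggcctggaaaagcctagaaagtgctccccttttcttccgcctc
HSPD1: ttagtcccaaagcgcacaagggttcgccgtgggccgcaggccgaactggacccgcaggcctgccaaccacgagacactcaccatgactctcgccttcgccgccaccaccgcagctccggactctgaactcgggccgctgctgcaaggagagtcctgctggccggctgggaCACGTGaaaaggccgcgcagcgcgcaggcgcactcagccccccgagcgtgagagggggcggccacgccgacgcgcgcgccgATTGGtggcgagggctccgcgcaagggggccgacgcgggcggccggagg
CCT2: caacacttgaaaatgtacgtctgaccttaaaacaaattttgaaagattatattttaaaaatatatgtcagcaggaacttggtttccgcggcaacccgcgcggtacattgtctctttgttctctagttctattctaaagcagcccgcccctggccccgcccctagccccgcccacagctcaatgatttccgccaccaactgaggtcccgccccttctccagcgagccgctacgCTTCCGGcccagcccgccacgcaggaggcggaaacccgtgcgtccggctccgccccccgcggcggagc
CCT6A: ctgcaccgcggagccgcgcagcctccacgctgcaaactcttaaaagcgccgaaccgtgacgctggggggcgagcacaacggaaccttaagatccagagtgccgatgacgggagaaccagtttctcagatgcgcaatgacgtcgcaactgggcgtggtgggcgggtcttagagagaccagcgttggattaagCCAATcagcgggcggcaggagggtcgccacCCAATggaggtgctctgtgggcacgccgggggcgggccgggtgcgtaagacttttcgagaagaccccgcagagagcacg

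The E-box was found in 1 of the 12 member windows, that of HSPD1 printed above, where it begins 80 bases before the start site, and in 7.15% of the 32851 windows of all genes. The heat shock element was found in 2 of the 12, the HSPE1 window and the second HSPD1 window, against 0.603% of all windows. These are 1 stretch of DNA read on both strands, since the second HSPD1 window (chr1:55087883-55088182, minus strand) shares 285 bases with the HSPE1 window. CCAAT was found in 5 of the 12 windows (HSPD1, CCT3, CCT6A, CCT7 and TCP1) against 37.4% of all, and CCGGAAG in 5 of the 12 (HSPD1, HSPE1, CCT2, CCT8 and TCP1) against 8.86%. The HSPD1 and HSPE1 matches to CCGGAAG are likewise in the shared stretch and count the same bases under both genes. A match describes these letters only and is not evidence of binding.

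A start site on the opposite strand within 1000 bases was present for 8 of the 9 members with a window, all but CCT2, against 15.8% of the 27025 genes with one. HSPD1 and HSPE1 have each other. The partners of the CCT subunits are Mrpl18 (start sites 238 bases from those of TCP1), Tsacc (136 bases from CCT3), Atpsckmt (270 bases from CCT5, listed as FAM173B), Psph (103 bases from CCT6A), Pradc1 (203 bases from CCT7) and the non-coding B130034C11Rik (204 bases from CCT8).

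The MYC gene itself, read in every library as a check of the labels, had 230.0, 201 and 226 FPKM (fragments scaled to transcript length and to the mapped total of the library) in WT AP, DLP and VP, and 231, 586 and 1696 FPKM in MYC AP, DLP and VP. The MYC AP library thus stood level with its WT counterpart in this row, while MYC DLP and MYC VP stood above theirs. Whether reads of the human transgene were counted in the row is not given in the sources used here. Estimated depth ran from 25.4 M mapped reads in WT AP to 49.7 M in MYC AP, which puts between 1579 and 28104 reads behind each member value. The luminal keratins KRT8 and KRT18, which mark the secretory epithelium, were present in all libraries at 388 FPKM or more. Genes of the seminal vesicle, an organ that adjoins the AP, summed to 513 FPKM in MYC AP and to 0 in WT AP, and to 8.99 FPKM in MYC DLP and 0.10 in WT DLP.

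To see how the chaperonins were expressed in the lobes without the transgene, the WT libraries were read first. CCT2, the beta subunit, and CCT5, the epsilon subunit, were the highest subunits in all 3 lobes. CCT2 stood at 79.6 FPKM in AP, 90.0 in DLP and 86.1 in VP. CCT5 stood at 68.6 FPKM in AP, 89.5 in DLP and 85.5 in VP. The other 6 subunits lay between 39.5 and 67.3 FPKM, with CCT6A, the zeta subunit, the lowest in each lobe at 44.5, 48.0 and 39.5 FPKM. The mitochondrial genes were higher than any CCT subunit. HSPD1 had 173 FPKM in WT AP, 152 in WT DLP and 122 in WT VP. HSPE1 had 250.02 FPKM in WT AP, 219 in WT DLP and 193 in WT VP. Both were thus highest in AP and lowest in VP. Cell type markers differed between the same WT libraries. Their sums over AP, DLP and VP were 1708, 1598 and 3475 FPKM for luminal, 1337, 918 and 407 FPKM for basal and 143, 108 and 23.7 FPKM for endothelial genes. The luminal genes went both ways. KRT8 (400, 446 and 1292 FPKM) and KRT18 (549, 526 and 1611 FPKM) were highest in VP. EPCAM (325, 316 and 274 FPKM) and CD24A (435, 311 and 298 FPKM) were lowest there. The part of these cell types in the lobe values was not tested.

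None of the 10 members was 2-fold apart between WT lobes. The CCT median log2 ratio, taken on log2(FPKM + 1), was -0.10 for VP against AP, -0.22 for VP against DLP and 0.18 for DLP against AP. Over all genes compared the medians were -0.01, -0.13 and 0.10, and 18.2%, 8.92% and 5.16% of genes were at least 2-fold apart in the same comparisons. The mean log2 ratio of HSPD1 and HSPE1 was -0.44 for VP against AP, -0.25 for VP against DLP and -0.19 for DLP against AP. The lower value in VP than in AP held for HSPD1 and HSPE1 under each of the 4 other scalings tried, but HSPE1 was higher in VP than in DLP (0.04 and 0.07) under medians of ratios and a trimmed mean. The sign of the CCT median changed under at least 1 scaling in each of these 3 comparisons, so no order of the WT lobes is given for CCT.

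In the VP all 10 chaperonin transcripts were higher in MYC than in WT, beside 53.2% of all genes compared. The CCT subunits together went from 441 to 825 summed FPKM, a ratio of 1.87, and HSPD1 and HSPE1 together went from 315 to 565 FPKM, a ratio of 1.79. CCT2, CCT5 and HSPD1 were at least 2-fold higher, 3 of 10 members, beside 6.88% of all genes compared. At a 1.5-fold threshold it was 8 of 10 members, all but CCT6A and CCT8, beside 16.7% of all genes, and no member was 2-fold lower, beside 5.95%.

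The subunits differed from each other in the size of the VP difference. CCT2 went from 86.1 FPKM in WT VP to 202 in MYC VP, a log2 ratio of 1.22 ± 0.04, where the error is the reach to either side of a 95% exact (Clopper-Pearson) interval from estimated reads and covers counting error only. CCT5 went from 85.5 to 181 FPKM, a log2 ratio of 1.08 ± 0.04. CCT4, the delta subunit, went from 50.03 to 99.7 FPKM, a log2 ratio of 0.98 ± 0.05 that lies just inside the 2-fold line. The remaining subunits followed in a graded series. CCT7 (eta) had 40.1 FPKM in WT VP against 72.2 in MYC VP, TCP1 (alpha) 52.9 and 89.3, and CCT3 (gamma) 39.6 and 60.7, which are log2 ratios of 0.83, 0.74 and 0.60. CCT8 (theta) had 47.1 and 68.0 FPKM, and CCT6A had 39.5 and 52.4, with log2 ratios of 0.52 and 0.40. The counting intervals of CCT2 and CCT6A lay far from each other, while those of the neighbours CCT4 and CCT5, TCP1 and CCT7, and CCT3 and CCT8 lay close or overlapped.

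Of the mitochondrial pair, the chamber gene had the larger difference in the VP. HSPD1 went from 122 FPKM in WT VP to 252 in MYC VP, a log2 ratio of 1.04 ± 0.03. HSPE1 went from 193 to 313 FPKM, a log2 ratio of 0.69 ± 0.05. The plot of levels by library shows both beside the CCT subunits.

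**Figure D1:**
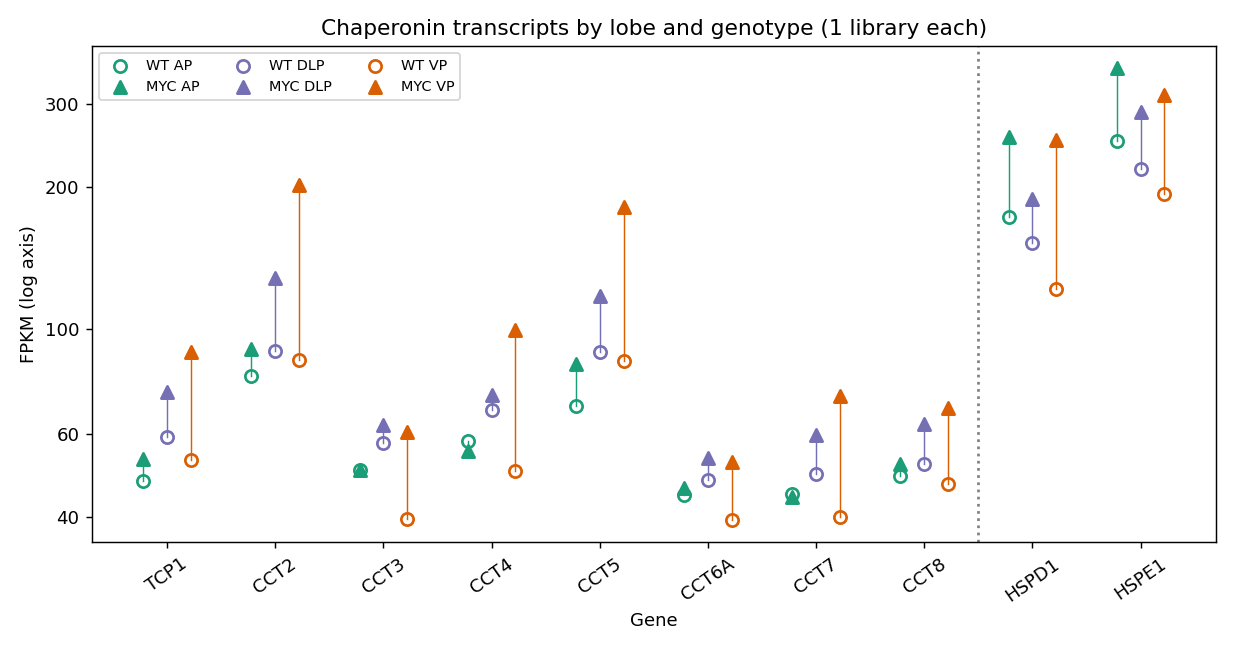
Level of each member in FPKM (log axis) in the 6 libraries, with WT as open circles, MYC as filled triangles, a colour for each lobe and a line joining the genotypes of a lobe. In VP every triangle lies above its circle, from 39.5 against 52.4 FPKM for CCT6A to 86.1 against 202 FPKM for CCT2.

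How many VP members passed 2-fold depended on the scaling of the libraries, and their sign did not under the 4 scalings tried. FPKM sums differed between libraries, from 374085 in WT AP to 483143 in MYC VP. With the sums made equal, the median of all genes in the VP comparison moved from 0.04 to -0.15, and to -0.18 with sums that omit the 20 most abundant genes. Under these scalings 0 of the 10 members were 2-fold higher, beside 4.49% and 4.30% of all genes. All 10 were still above 0, beside 38.8% and 36.5% of all genes. The CCT median stood at 0.55 and 0.52, against 0.79 as deposited.

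In the DLP the same 10 transcripts were higher in MYC than in WT by smaller amounts, beside 53.5% of all genes above 0. CCT2 had 90.0 FPKM in WT DLP and 128 in MYC DLP, a log2 ratio of 0.51 ± 0.05. CCT5 had 89.5 and 117 FPKM, a log2 ratio of 0.39 ± 0.05. TCP1, CCT8 and CCT7 had log2 ratios of 0.31, 0.27 and 0.27, and CCT6A, CCT3 and CCT4 had 0.15, 0.12 and 0.10. CCT2 and CCT5 thus led here as in the VP, while CCT4, next to them in the VP, came last. HSPD1 had 152 FPKM in WT DLP and 188 in MYC DLP, and HSPE1 had 219 and 288, which are log2 ratios of 0.31 and 0.40. The CCT median was 0.27 and the mean of HSPD1 and HSPE1 was 0.35, beside a median of 0.03 over all genes. CCT3, CCT4 and CCT6A were below 0 with equal sums that omit the 20 most abundant genes, and the other 7 members stayed above 0 under the 4 scalings tried. With those sums 39.1% of all genes were above 0. No member was 2-fold higher or lower in the DLP, beside 6.46% and 3.39% of all genes.

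In the AP the CCT subunits stood near the level of WT, and HSPD1 and HSPE1 stood above it. CCT5 had 68.6 FPKM in WT AP and 84.3 in MYC AP, the largest CCT difference of the lobe at a log2 ratio of 0.29 ± 0.06. CCT2 had 79.6 and 90.6 FPKM, a log2 ratio of 0.18 ± 0.06. The other 6 subunits had log2 ratios from -0.07 (CCT4, 58.1 against 55.1 FPKM) to 0.15 (TCP1, 47.7 against 53.1 FPKM). The CCT median of 0.07 lay under the median of all genes, 0.13, and was negative under medians of ratios and under a trimmed mean (-0.081 and -0.070). HSPD1 had 173 FPKM in WT AP and 254 in MYC AP, a log2 ratio of 0.56 ± 0.03. HSPE1 had 250.02 and 356 FPKM, a log2 ratio of 0.51 ± 0.05. Seminal vesicle genes, at 513 FPKM in MYC AP and 0 in WT AP, differed in the same comparison, and their part in it was not tested. The mean of the pair was 0.53 and stayed between 0.38 and 0.53 under the scalings and the pseudocount tried. No member was 2-fold higher or lower in the AP, beside 2.05% and 0.599% of all genes.

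**Figure D2:**
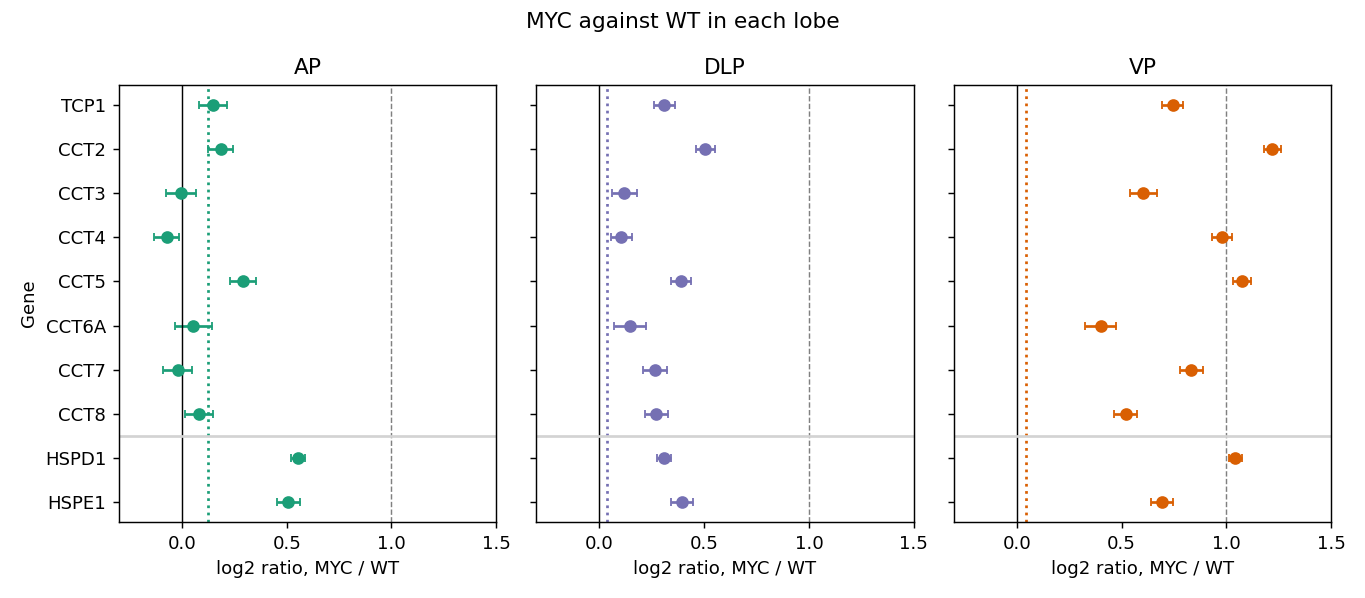
Log2 ratio of MYC against WT for each member in AP, DLP and VP, with bars for the 95% counting interval. The dotted line is the median of all genes compared (0.13, 0.03 and 0.04) and the dashed line is 2-fold. Only CCT2, CCT5 and HSPD1 in VP lie past the dashed line, and in AP HSPD1 and HSPE1 lie to the right of all CCT subunits.

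The subunits of the ring were then compared within each library, where scaling has no part. FPKM are scaled to length, so transcript levels were set side by side, but other differences between genes in how reads are counted remain. The values are of RNA and do not give the ratio of the proteins in the ring. CCT2 was the highest subunit and CCT5 the next in all 6 libraries, and CCT6A was the lowest in all but MYC AP, where CCT7 was. The highest subunit was at 1.79 times the level of the lowest in WT AP, 1.87 times in WT DLP and 2.18 times in WT VP. The MYC values were 2.05, 2.41 and 3.85 in the same order. The ratio was thus highest in MYC VP. In AP the ratio of CCT2 to CCT6A was 1.79 in WT (95% counting interval 1.69 to 1.90) and 1.96 in MYC (1.88 to 2.04), so the intervals overlapped, and in DLP it was 1.87 (1.80 to 1.95) and 2.41 (2.30 to 2.52).

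The coefficient of variation over the 8 subunits gave the same order, at 22.9%, 26.5% and 35.6% in WT AP, DLP and VP and 29.8%, 35.7% and 55.1% in MYC. CCT2 made up 19.5% of the summed CCT FPKM in WT VP against 24.4% in MYC VP, and CCT5 made up 19.4% and 21.97%. The share of CCT4 was also larger in MYC VP, at 11.3% and 12.1%. The shares of the other 5 were smaller, at 8.96% and 6.35% for CCT6A, 8.99% and 7.35% for CCT3, 10.7% and 8.23% for CCT8, 12.0% and 10.8% for TCP1 and 9.10% and 8.75% for CCT7, although all 8 subunits were higher in FPKM. The ratio of CCT2 to CCT6A was 2.18 in WT VP (95% counting interval 2.09 to 2.28) and 3.85 in MYC VP (3.70 to 4.00).

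**Figure D3:**
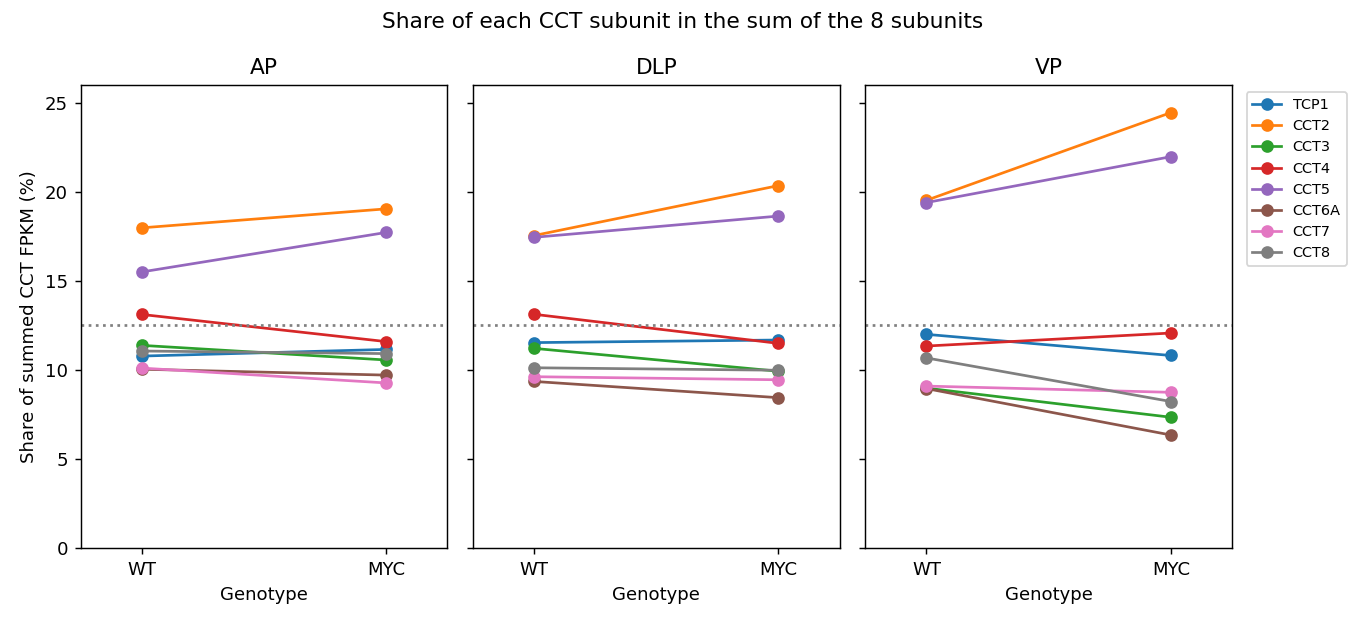
Share of each CCT subunit in the summed FPKM of the 8 subunits, in percent, for WT and MYC of each lobe. The dotted line marks equal shares. CCT2 and CCT5 lie above it throughout, and in VP their lines go up to 24.4% and 21.97% while those of CCT6A, CCT3, CCT8, TCP1 and CCT7 go down.

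The lid-to-chamber ratio of the mitochondrial pair, HSPE1 over HSPD1, was 1.45 in WT AP, 1.44 in WT DLP and 1.58 in WT VP. The MYC values were 1.40, 1.53 and 1.24. MYC VP was the lowest of the 6 and WT VP the highest. HSPE1 has a transcript model of 774 bases, the shortest of the members, so that its FPKM depends more than the others on the fragment length assumed. The table rows used here hold none of the 45 pseudogenes that RefSeq names after the members (23 of HSPD1, 7 of HSPE1 and 15 of CCT subunits), and how reads shared with them were counted is not given in the sources used here.

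The opposite-strand partners of TCP1, CCT3, CCT5, CCT6A and CCT7 were lower in level than these subunits and lay nearer 0 in the VP comparison, but not in each lobe. MRPL18, which encodes a mitochondrial ribosomal protein, had 22.3 FPKM in WT VP against 24.8 in MYC VP, a log2 ratio of 0.15, beside 0.74 for TCP1. PSPH, the last enzyme of serine synthesis, had 4.55 and 4.30 FPKM, a log2 ratio of -0.07, beside 0.40 for CCT6A. The log2 ratios of TSACC, FAM173B and PRADC1 were -0.30, 0.03 and 0.30. B130034C11RIK, the partner of CCT8, had 0.20 and 0.32 FPKM, under the filter on low values, and no ratio is given for it. The log2 ratios of HSPD1 and HSPE1, which are each other's partner, were 1.04 and 0.69. In AP MRPL18, TSACC and PRADC1 (0.60, -0.57 and 0.22) lay farther from 0 than TCP1, CCT3 and CCT7 (0.15, -0.0043 and -0.02). In DLP TSACC, PSPH and PRADC1 (-0.37, -0.20 and 0.30) lay farther from 0 than CCT3, CCT6A and CCT7 (0.12, 0.15 and 0.27). The remaining partners of these subunits lay nearer 0 in those lobes. TCP1 overlaps Mrpl18 by 1459 bases and Acat3 by 1238, and whether counting used the strand is not given in the sources used here.

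The other genes of cytosolic folding are given beside CCT, with 12.8% of all genes past 2-fold in either direction in VP, so that counts of 0 in lists this short are near the background. Prefoldin, the jellyfish-shaped carrier that hands actin and tubulin chains to CCT, had 0 of 6 subunits 2-fold higher or lower in any lobe, and medians of 0.17, 0.0093 and -0.08 in AP, DLP and VP. Its highest members by the mean of the 6 libraries were PFDN5, at 275 FPKM in WT VP against 213 in MYC VP, and PFDN2, at 32.3 and 26.1. PFDN1, PFDN4 and PFDN6 had log2 ratios of 0.27, 0.13 and 0.17 in VP, and VBP1, the remaining subunit, of -0.29. Phosducin-like proteins, which act with CCT, and tubulin cofactors, which take tubulin from it, had 0 of 8 past 2-fold and medians of 0.05, 0.05 and -0.03. PDCL3 had 80.0 FPKM in WT VP against 51.2 in MYC VP, and TBCA had 95.8 and 113. Of the chaperonin-like and paralogous genes (CCT6B, CCT8L1, MKKS, BBS10 and BBS12), MKKS alone passed the filter, with 2.44 FPKM in WT VP against 2.49 in MYC VP.

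Among 11 genes of proteins that CCT folds, the median was -0.14, 0.03 and 0.06 in AP, DLP and VP. The actins, its best-known clients, differed little in VP, with ACTB at 2946 FPKM in WT and 2701 in MYC and ACTG1 at 3641 and 3620, which are log2 ratios of -0.13 and -0.0086. CDC20, an activator of the anaphase-promoting complex, was past 2-fold in all 3 lobes (0.46 against 6.83 FPKM in VP), and TUBB5, a beta-tubulin, in VP (30.4 against 67.1 FPKM). Both were named after their values were seen, and CDC20, under 1 FPKM in each WT library, passed the filter through the MYC libraries. The 5 proliferation markers had a summed level of 2.52 FPKM in WT VP against 44.4 in MYC VP and of 2.78 in WT DLP against 43.7 in MYC DLP. In AP their sum was 4.37 FPKM in WT against 14.6 in MYC. Since part of them also passed the filter through MYC alone, no count is read from them. The part of proliferation in the chaperonin values was not tested.

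The list of mitochondrial import, folding and proteolysis, 16 genes that act in the matrix, at the inner membrane or in the intermembrane space, had medians of 0.19, 0.10 and 0.39 in AP, DLP and VP. In VP 15 of 16 were above 0, beside 53.2% of all genes, and 3 were at least 2-fold higher, beside 6.88%, namely TRAP1 (the Hsp90 of the matrix, 20.5 against 47.7 FPKM), HSCB (a co-chaperone of iron-sulfur cluster assembly, 6.59 against 16.0 FPKM) and HTRA2 (a protease of the intermembrane space, 9.93 against 40.4 FPKM). With equal sums, with or without the 20 most abundant genes, HTRA2 alone was past 2-fold, beside 4.49% and 4.30% of all genes. Under these scalings 13 of 16 were above 0, beside 38.8% and 36.5% of all genes. HSPA9, the matrix Hsp70 and the most abundant of the list, had 81.1 FPKM in WT VP against 105 in MYC VP. In AP it went against HSPD1, with 116 FPKM in WT and 89.3 in MYC.

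HSPD1 and HSPE1 are also targets of the heat shock response, and the cells had been dissociated at a warm temperature, so 11 genes of that response were set beside them. In the WT lobes 6 of the 11 (HSF1, HSPA1A, HSPA1B, HSPH1, DNAJB1 and BAG3) had the order of HSPD1 and HSPE1, with AP above DLP and DLP above VP, beside 28.3% of all genes compared. The other 5 (HSF2, HSPA8, HSPB1, HSP90AA1 and HSP90AB1) did not. Under the other scalings 6 or 7 of the 11 had this order, beside 26.2% to 37.1% of all genes, without HSF1 and with HSPB1, and HSPE1 itself lost it under medians of ratios and a trimmed mean. HSPA1B, an inducible Hsp70 almost identical to HSPA1A, had 2142 FPKM in WT AP, 1667 in WT DLP and 1199 in WT VP. HSPB1, a small heat shock protein, had 1550, 1633 and 1331 FPKM.

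In AP the list had a median log2 ratio of 0.34, with 9 of 11 genes above 0, beside 66.4% of all genes and their median of 0.13. The mean of HSPD1 and HSPE1 was 0.53. HSPA1B had 2916 FPKM in MYC AP, and DNAJB1, the Hsp40 partner of Hsp70, went from 263 to 468 FPKM. In VP the list went both ways around a median of 0.01, with 6 of 11 genes above 0 beside 53.2% of all genes. DNAJB1, HSP90AB1, HSPH1, HSF1 and HSPB1 had log2 ratios of 0.50, 0.48, 0.28, 0.27 and 0.26, while HSPA1B was lower in MYC VP (1199 against 711 FPKM) and so was BAG3 (124 against 64.2 FPKM). In DLP the median of the list was -0.0020. The part of a heat shock response in the chaperonin values was not tested.

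**Figure D4:**
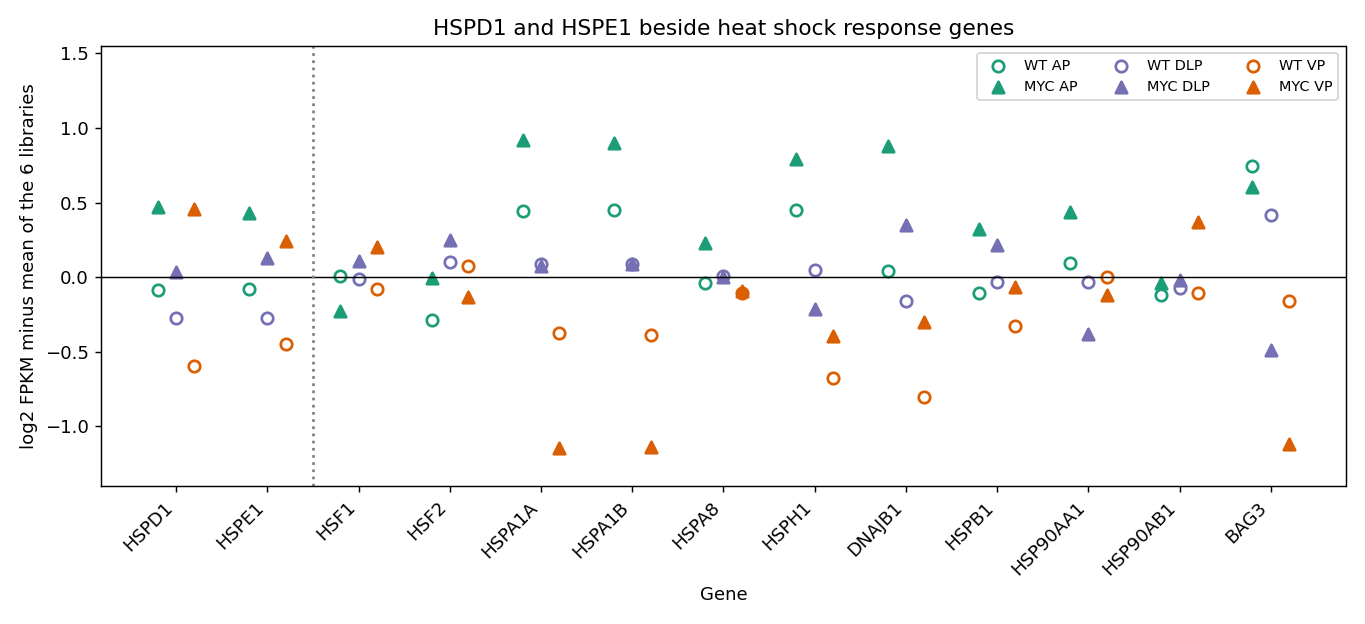
Log2 FPKM of HSPD1, HSPE1 and 11 heat shock response genes in each library, minus the mean of the 6 libraries, with WT as open circles, MYC as filled triangles and a colour for each lobe. In MYC VP HSPD1, HSPE1 and HSP90AB1 lie above the mean while HSPA1A, HSPA1B and BAG3 lie at their lowest, and in MYC AP HSPD1, HSPE1, HSPA1A and DNAJB1 all lie above the mean.

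Early-response genes that cell dissociation induces, such as ATF3 and EGR1, had medians of 0.16, 0.03 and -0.50 in AP, DLP and VP over 8 genes. Markers of other cells also moved with genotype. Hematopoietic markers were higher in MYC in 6 of 6 genes in DLP and VP, beside 53.5% and 53.2% of all genes, with sums of 74.2 against 331 FPKM in DLP and 26.99 against 197 FPKM in VP, and were near level in AP (153 against 164 FPKM). Luminal markers had medians of -0.24, 0.23 and -0.26 in AP, DLP and VP, and basal markers -0.11, 0.79 and -0.59. The basal genes went both ways in AP, where KRT14 had a log2 ratio of -1.19 and TRP63 of 1.57. Smooth muscle markers had medians of 0.76, -1.18 and -0.88, fibroblast markers 1.41, 0.78 and -0.46, and endothelial markers 0.09, 0.01 and -0.08. The fibroblast genes went both ways in DLP, where COL1A1 and COL3A1 had log2 ratios of 1.98 and 2.03 and DCN and PDGFRA of -1.35 and -1.65, and their sum was 1255 FPKM in WT and 671 in MYC. In AP COL1A1, COL1A2 and COL3A1 had log2 ratios of 2.04, 1.41 and 1.92, but DCN and PDGFRA of -0.09 and 0.25. The fibroblast sum in AP was 1174 FPKM in WT and 1327 in MYC. The adipocyte markers ADIPOQ and PLIN1 fell under the filter, and FABP4, the remaining one, had log2 ratios of 0.40, 0.02 and 0.29. The part of these cells in the chaperonin values was not tested.

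The genes whose profile over the 6 libraries lay nearest to that of the CCT subunits were sought among 5350 genes that averaged 10 FPKM or more, by Euclidean distance between centred log2(FPKM + 1) profiles. TXN2, the thioredoxin of mitochondria, was nearest at 0.08 log2 units, with 43.3 FPKM in WT VP against 74.1 in MYC VP. DUS3L, AP1M1, 2810004N23RIK and TOMM22, a subunit of the outer-membrane import complex, followed at 0.11 to 0.13. Of the subunits themselves CCT7 lay at 0.09 and CCT2 at 0.49 from their own mean. The nearest to HSPD1 and HSPE1 was CHD4, a chromatin remodeller, at 0.33, followed by BAZ1B, 2610507B11RIK, SLBP and HDAC2 at 0.33 to 0.36, and no gene came as near to the pair as TXN2 did to CCT.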

How the data were processed

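Polyadenylated RNA of 6 libraries was sequenced as single-end reads of 75 bases (stranded mRNA kit). Per the labels and the methods, the authors demultiplexed with bcl2fastq (2.18), mapped with STAR to mm10 and quantified with Cufflinks. The gene annotation is not given in the sources used here. The authors describe counts, but the deposited values are not whole, so they were used as FPKM, deposited without further normalization, and no count model was run. Ratios were taken on log2(FPKM + 1) for genes averaging 1 FPKM or more, with a 2-fold threshold. Depth was estimated from the steps of low FPKM values of single-exon genes, where 43.8% to 52.7% of values fell within 0.03 of a whole read against 6% by spacing. Reads per gene then gave 95% exact binomial intervals, which cover counting error only and not the spread between animals. Alternatives were 4 scalings, a pseudocount of 0.1, a 1.5-fold threshold and other filters. Gene positions and promoter windows came from RefSeq on GRCm38.p6, the assembly of mm10. The members and lists were chosen with earlier results of these data known. Named were the members, the 2 genes of each functional list with the highest mean over the libraries and the 5 genes nearest in profile. Other genes of the lists were named after their values were seen. Calculations used Python 3.11.15, numpy 2.4.6, pandas 2.3.3 and scipy 1.17.1, tested on simulated data. Single-cell and ChIP-seq data of the study were not used here.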

Additional observations from a re-analysis of the deposited data

Results flagged for a closer look

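Some values had opposite signs in different lobes in the comparison of MYC with WT. None of these differences was tested, since each lobe and genotype has 1 library. CCT3 was at -0.0043 in AP and higher by 0.12 in DLP and by 0.61 in VP on the log2 scale, but its AP value lies within its counting error of 0.07. CCT4 was at -0.07 in AP, with differences of 0.18 (DLP minus AP) and 1.05 (VP minus AP). CCT7 was at -0.02 in AP, also within its counting error of 0.07, with differences of 0.29 and 0.85.

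Medians of supporting lists also changed sign between VP and AP. The differences, VP minus AP, were -0.25 for prefoldin, -0.074 for phosducin-like proteins and tubulin cofactors, 0.19 for CCT clients, -0.65 for the dissociation response, -1.64 for smooth muscle markers, -1.87 for fibroblast markers and -0.17 for endothelial markers.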

How the results depend on the processing

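Log2 ratios are given for AP, DLP and VP in MYC against WT, and for VP against AP, VP against DLP and DLP against AP in WT. With size factors from medians of ratios, the CCT median was -0.081, 0.21 and 0.68 between genotypes and -0.026, -0.0032 and 0.046 between WT lobes, and the mean of HSPD1 and HSPE1 was 0.38, 0.29 and 0.76 and -0.36, -0.031 and -0.33. With equal FPKM sums, the CCT median was 0.045, 0.22 and 0.55 between genotypes and -0.24, -0.14 and -0.026 between WT lobes, and the mean of HSPD1 and HSPE1 was 0.51, 0.30 and 0.63 and -0.57, -0.17 and -0.40. With equal sums without the 20 highest genes, the CCT median was 0.019, 0.11 and 0.52 between genotypes and -0.097, -0.13 and 0.10 between WT lobes, and the mean of HSPD1 and HSPE1 was 0.48, 0.19 and 0.60 and -0.43, -0.16 and -0.27. With a trimmed mean of log ratios, the CCT median was -0.070, 0.23 and 0.74 between genotypes and 0.032, 0.032 and 0.069 between WT lobes, and the mean of HSPD1 and HSPE1 was 0.39, 0.32 and 0.82 and -0.30, 0.0046 and -0.30. A pseudocount of 0.1 moved none of these values beyond counting error. The number of members at least 2-fold higher in VP, 3 as deposited, was 1 with medians of ratios, 0 with equal sums with or without the 20 highest genes, 2 with a trimmed mean and 8 at a 1.5-fold threshold, and in AP and DLP it was 0 under each of these. The share of all genes at least 2-fold higher in VP, 6.88% as deposited, was 5.77% with medians of ratios, 4.49% and 4.30% with equal sums with and without the 20 highest genes, 6.22% with a trimmed mean, and 16.7% of genes passed 1.5-fold. The ratios within a library moved by less than counting error with a pseudocount of 1. The sign of a member's MYC against WT ratio changed in 5 of 50 values in AP, 3 of 50 in DLP and 0 of 50 in VP, and the cause of these shifts between scalings was not tested. No paired analysis was possible because there is 1 animal per genotype, so that lobes shared by the genotypes are not replicates of them, and with 1 library per lobe and genotype no replicate could be left out.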

Other observations

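Within a library, where scaling has no part, HSPD1 was set against the mean of the 8 CCT subunits. It was 3.12, 2.37 and 2.21 times as high in WT AP, DLP and VP, and 4.28, 2.39 and 2.44 times as high in MYC. MYC AP had the highest value of the 6 libraries and WT VP the lowest. These values rest on lobes of 1 animal per genotype and were not tested.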
